A study of Nothobranchius furzeri with 10 samples.

Results

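The genes described here were present in some and absent in others of 10 RNA-seq libraries made from killifish brain. The species, Nothobranchius furzeri, lives for less than a year in temporary ponds and serves as a model of ageing. Genes were selected on their counts: a gene was included when it reached at least 2 CPM in at least 1 library and had a count of exactly 0 in at least 1 other. CPM is the count of a gene divided by the library total and multiplied by 1000000. The rule found 78 genes among the 26739 in the table, referred to below as on/off genes. They were 0.444% of the 17571 genes that reached 2 CPM in any library. The rule used these same counts, so all levels and patterns below are descriptions, with no p-value.

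All 10 libraries were total RNA from brains of male fish of the GRZ strain, 10 weeks old, and all carry the same label, a swim tunnel, in which fish swim against a water current. The labels give no group without it here, and no difference between libraries, so no condition can be compared. They do not say whether each library came from its own fish, nor whether the whole brain was taken. The libraries go by the numbers in their titles, JG74 to JG78 and JG80 to JG84.

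Brain tissue holds neurons, glia, vessel cells and coverings of the brain in 1 RNA sample, and GRZ is a highly inbred laboratory strain. The level of an expressed gene normally differs between such samples by degree, and a change between full and no detection is the extreme case. In bulk RNA, fewer cells of a type and less RNA per cell cannot be told apart. The files pair the gene identifiers with no names, and 0 of 26739 matched a RefSeq table of 38438 genes of the species (assembly NfurGRZ-RIMD1). No function, cell type or sequence is therefore given for any gene, and the brain label could not be checked against marker genes.

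The smallest library held 22958779 counts and the largest 28223263, averaging 25327626 ± 1990858 (SD, n = 10). In these libraries 3 counts stood for 0.106 to 0.131 CPM, and 2 CPM was reached at 46 to 57 counts. A count of 0 allows a level up to that floor of 3 counts, which covers counting error only. No pair of the 45 had counts that agreed within sampling noise (chi-square of at least 9.58 per degree of freedom over 16633 genes). This bears only on the same library deposited more than once, not on whether libraries came from the same RNA or fish.

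Most on/off genes were low even where they were on. Their highest level had a median of 3.38 CPM, against 27.7 CPM for the 17493 other genes that reached 2 CPM. A count of 0 is likelier in genes of low level. The rule thus favours low genes, and this difference was not separated from that selection. In 47 genes the highest level was under 5 CPM, in 19 it was from 5 to 10 CPM, and in 12 it was 10 CPM or more, up to 139 CPM. A filter at a mean of 1 CPM over the libraries would have kept 36 of the 78. The genes just inside the rule peaked at 2.02, 2.03 and 2.05 CPM, and those just outside, with a 0 in some library, at 1.98, 1.95 and 1.91 CPM. On the other side of the rule, 38 genes that reached 2 CPM had a lowest count of 1, 37 a lowest count of 2 and 22 a lowest count of 3.

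On/off genes were on in few libraries and at exactly 0 in few. They were at 2 CPM or more in exactly 1 library in 29 genes, in 2 libraries in 26, in 3 libraries in 8, in 4 libraries in 2, in 5 libraries in 3, in 6 libraries in 6 and in 7 libraries in 4. No gene was on in 8 or 9 libraries. Without JG81, the genes on in exactly 1 library numbered 44. A count of 0 occurred in 1 library in 44 genes, in 2 libraries in 24, in 3 libraries in 4, in 4 libraries in 4 and in 5 libraries in 2. Of the 780 values (78 genes in 10 libraries), 192 were at 2 CPM or more and 130 at 0. A further 212 were at 1 to 3 counts, and 246 lay in between, from 4 counts to under 2 CPM.

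Nearly all genes had a library at an intermediate level. The 3 exceptions were Nfu_g_1_007753, Nfu_g_1_013480 and Nfu_g_1_017941, with each library either at 3 counts or fewer or at 2 CPM or more. The gene Nfu_g_1_007753 had 89 counts in JG74 and 0 to 3 in the other 9 libraries. The gene Nfu_g_1_013480 had 57 counts in JG80 and 0 to 3 in the others. The gene Nfu_g_1_017941 was on in 6 libraries and is described with its group below. Without JG77, JG78 or JG81, genes with no intermediate library numbered 5, 7 and 5. No pair of genes had exactly complementary patterns, in which each was on where the other had at most 3 counts. Only the 3 genes with no intermediate library could form such a pair, so this says little about the other genes.

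The libraries differed in how many of the genes they had on. JG74 had 51 of the 78 at 2 CPM or more and JG81 had 36, while JG77 had 20, JG76 had 18 and the other 6 libraries had 6 to 15. JG84 had the fewest, with 6, and JG78 had 8. The zeros were most frequent in JG75, with 24 genes, and JG84, with 23, and least frequent in JG76, with 4, JG80, with 5, and JG74, with 6. Among all genes outside the rule, JG76 also had the most with at least 1 count, 21834. The fewest were in JG83, 21553, and JG84, 21557, followed by JG81, 21604, and JG75, 21622. The order was thus not the same, as JG83 and JG81 had 17 and 9 on/off genes at 0. JG78 and JG76 stood out by intermediate levels, with 45 and 46 genes, against 14 to 29 in the other 8 libraries. JG75 was the sole library at 0 for 10 on/off genes and JG84 for 11. The same number for genes outside the rule is not given here.

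The order of the libraries by depth was not the same as by genes on or by zeros. JG74, with the most genes on, had the smallest total, and JG80 and JG78, with 15 and 8 genes on, had the largest totals, 28223263 and 28002134 counts. JG75 and JG84, with the most zeros, had 24391012 and 25410273 counts. The largest libraries, JG80, JG78, JG82 and JG76, had 5, 10, 15 and 4 on/off genes at 0. Of the smaller libraries, JG77 and JG83 had 17 each, while JG81 had 9 and JG74 had 6. Whether zeros went with lower depth was not tested. Among the other genes, JG74 also had the most at 2 CPM or more, 16807, and JG84 the fewest, 16244. Between these the order was not the same: JG76 had 16563, above JG81 with 16508. The part of these library differences in the on/off states was not tested.

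**Figure D1:**
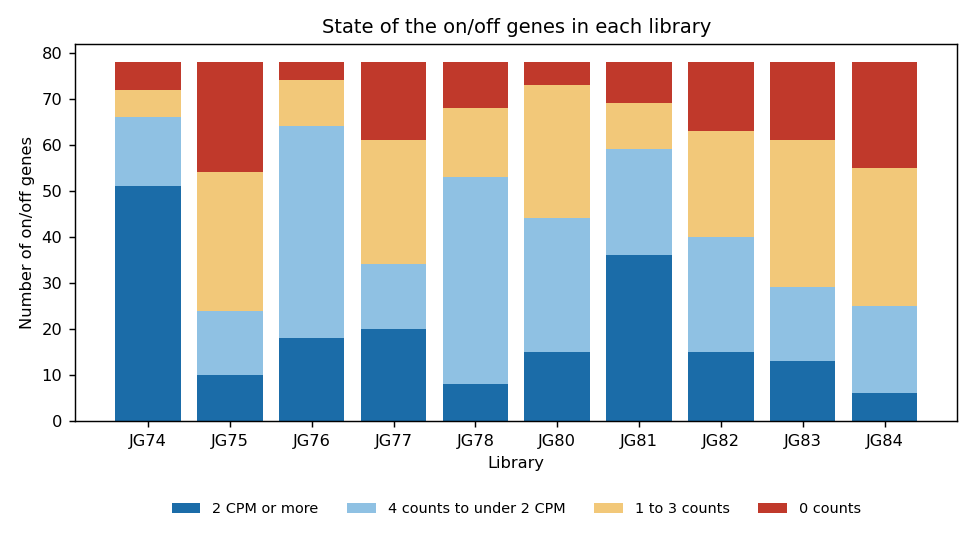
Number of on/off genes (vertical axis) in each of 4 states, for each of the 10 brain libraries (horizontal axis). JG74 and JG81 have 51 and 36 genes at 2 CPM or more, JG75 and JG84 have 24 and 23 genes at 0 counts, and JG76 and JG78 have 46 and 45 genes in between.

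The genes used 29 different combinations of on libraries, 19 of them in a single gene. Of these, 3 combinations were held by 5 or more genes, and all of them lay within JG74 and JG81: 21 genes were on in both and nowhere else, 17 in JG74 alone and 5 in JG81 alone. Together these were 43 of the 78 genes. Without JG74, or without JG81, 1 combination was held by 5 or more genes, and without both libraries the rule found 30 genes and no such combination. JG74 and JG81 shared 30 genes at 2 CPM or more, out of 57 on in either. JG76 and JG77 shared 13 of 25 and JG77 and JG83 11 of 22. At the other extreme, JG80 and JG81 had no on gene in common, although 15 and 36 genes were on in them. All these shares hold for the on/off genes only, and the rule leaves out every gene on in all 10 libraries. Of the 17493 other genes that reached 2 CPM, 16416 were on in JG80 and 16508 in JG81. In JG74, JG76, JG77 and JG83 they numbered 16300 to 16807. How many other genes were on in both libraries of a pair is not given here, so the shares do not measure how alike 2 libraries were. Of the on/off genes on in JG81, 16 had at most 3 counts in JG80, and of those on in JG80, 9 had at most 3 counts in JG81.

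**Figure D2:**
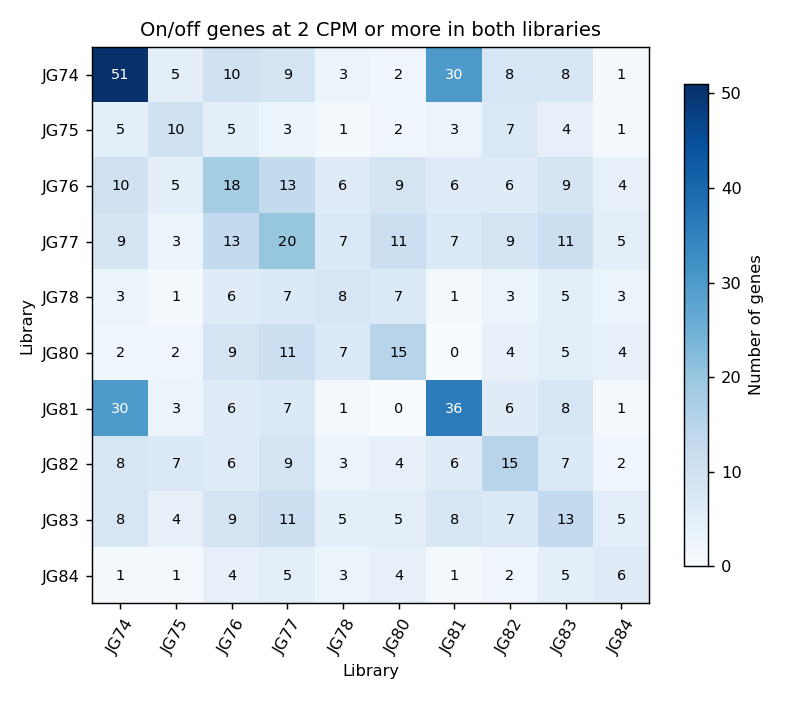
Number of on/off genes at 2 CPM or more in both libraries of each pair, with the number on in each library on the diagonal. JG74 and JG81 share 30 genes, and JG80 and JG81 share 0. The rule leaves out every gene on in all 10 libraries, so these numbers do not measure how alike 2 libraries were. Of the 17493 other genes that reached 2 CPM, 16416 were on in JG80 and 16508 in JG81.

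The genes fell into a few groups by profile. Grouping by the Pearson correlation of log2(CPM + 0.1) over the 10 libraries, separated at 0.5, gave 10 groups, 6 of them with 3 or more genes and 3 of a single gene. Mean pairwise correlations were 0.860 in group 1, 0.861 in group 3 and 0.947 in group 4. They were lower in group 2 (0.783), group 5 (0.666), group 6 (0.683) and group 7 (0.592). Single pairs went down to 0.189 in group 1 and 0.094 in group 2. The groups were separated on these same correlations, so high means within a group follow from the grouping and are given as description. The grouping was made after the values had been seen, and genes with a shared group are not independent observations, since they come from the same libraries.

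Group 1 held 42 genes that peaked in JG74 or JG81, with a mean pairwise correlation of 0.860. In JG74 39 of them were on and in JG81 26. The highest level was in JG74 for 31 genes and in JG81 for 11. Nfu_g_1_007753, given above with 89 counts in JG74, belonged to this group and had 2 counts in JG81. The median gene was at 56.4% of its highest level in JG81 and at 100% in JG74. It was at 10.2% in JG76, 3.6% in JG78, and between 0.6% and 2.2% in the other 6 libraries. The genes with at most 3 counts numbered 39 of 42 in JG77, 36 in JG75, 31 in JG83, 31 in JG84 and 30 in JG82, against 7 in JG76, 14 in JG78 and 25 in JG80. Most of the genes were thus above that floor in JG76 and JG78, though under 2 CPM in all but 2 genes of JG76. Exact zeros were scattered: 17 genes in JG77, 14 in JG75, 12 in JG84 and 11 in JG82.

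The gene of highest CPM in group 1, Nfu_g_1_003954, had 107 CPM in JG74 and 139 CPM in JG81. It was at 15.6 CPM in JG76, at 1.04 CPM in JG78 and at 0 in JG84, and the other 5 libraries lay between 0.0367 and 0.319 CPM. Its levels over all libraries averaged 26.3 ± 51.8 CPM (SD, n = 10).

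Several genes of group 1 were far higher in JG81 than in JG74. The gene Nfu_g_1_020600 had 979 counts (40.7 CPM) in JG81 and 84 counts (3.66 CPM) in JG74, with 0 in JG77 and 1 to 9 counts in the other 7 libraries. The gene Nfu_g_1_011390 had 902 counts (37.5 CPM) in JG81 and 167 counts (7.27 CPM) in JG74, with 0 in JG76 and JG77 and at most 12 counts elsewhere. Nfu_g_1_019372 had 9.76 CPM in JG81 and 2.31 CPM in JG74, with 1.79 CPM in JG78, 0.765 CPM in JG76 and 0 in JG75. It had 7 libraries at intermediate levels, the most of any on/off gene together with Nfu_g_1_012203. The opposite order held in Nfu_g_1_005561, with 109 counts (4.75 CPM) in JG74 and 42 counts (1.74 CPM) in JG81. Its other libraries had 0 to 18 counts, with 0 in JG77. Nfu_g_1_012203 had 68 counts (2.96 CPM) in JG74, 29 (1.20 CPM) in JG81, 0 in JG75 and 2 to 11 in the rest. The proportion between JG74 and JG81 thus differed from gene to gene.

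Within group 1, the profile of Nfu_g_1_003954 was not restricted to genes that touch 0. Among the genes that reached 2 CPM, 92 had a correlation of at least 0.95 with Nfu_g_1_003954 over the 10 libraries, and 83 of them were not on/off genes. In those 83 the highest library was between 1.48 and 1496 times the lowest, with a median of 26.0 times. The other 9 of the 92 were on/off genes, so most of the 42 genes of group 1 matched Nfu_g_1_003954 less closely.

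**Figure D3:**
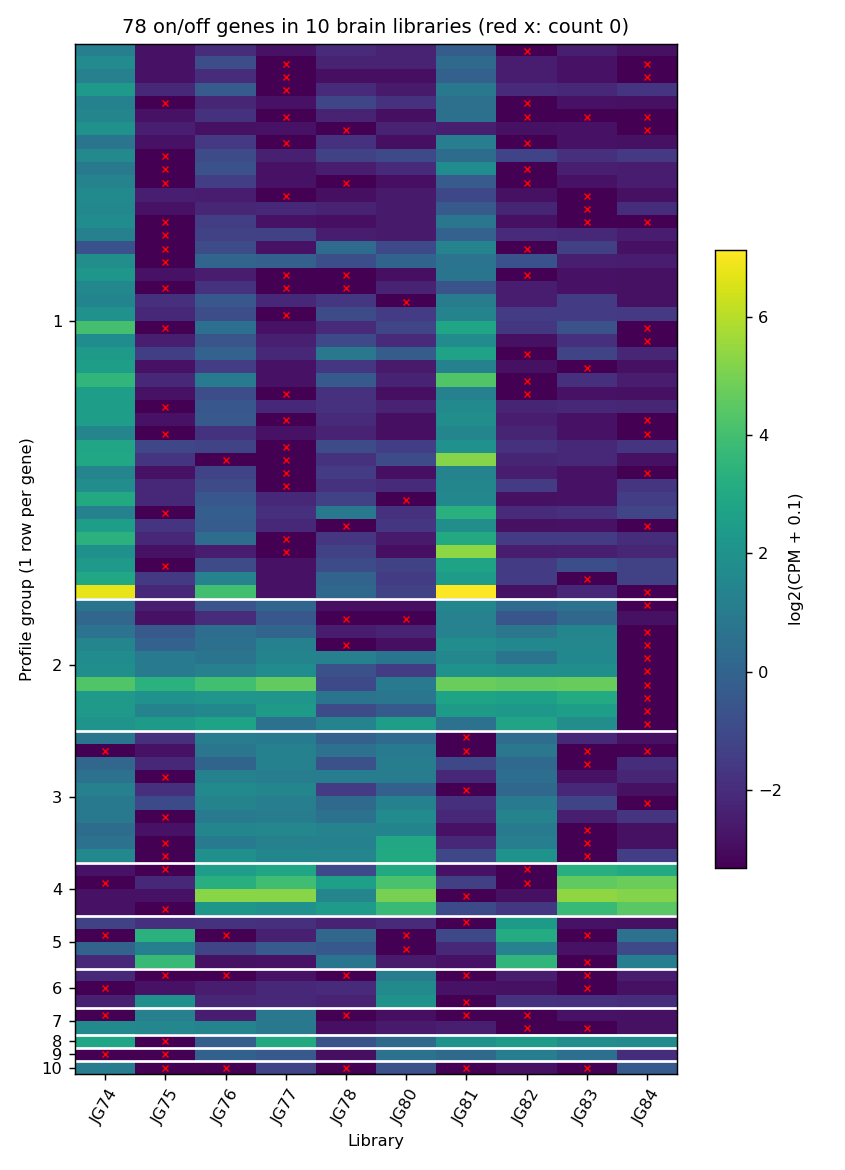
Level of each of the 78 on/off genes (rows, ordered by profile group, with white lines between groups) in the 10 libraries (columns), as log2(CPM + 0.1). Red crosses mark counts of 0. Most of group 1 is bright in JG74 and JG81, group 2 has 9 of 10 genes at 0 in JG84, and group 4 is dark in JG74, JG75, JG81 and JG82.

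Group 2 held 10 genes set by JG84, where 9 of them were at 0 and the other had 1 count. The median gene was at 40.9% to 95.6% of its highest level in JG74, JG75, JG76, JG77, JG81, JG82 and JG83. It was at 5.2% in JG78 and 6.8% in JG80, so those libraries also stood low. The median gene thus had 3 levels: high in 7 libraries, low in JG78 and JG80, and absent in JG84. Single genes departed from this. In JG75 only 4 of the 10 genes were on, and the lowest was at 1.7% of its highest level. In JG76 5 were on, and the lowest was at 6.3%. Nfu_g_1_010510 had 1 count in JG75 and 4 in JG76, and was on in JG81 alone.

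The clearest case was Nfu_g_1_000921. Its levels were 24.1 CPM at the median of the 7 high libraries (10.1 to 26.3 CPM), 0.393 CPM in JG78 and 1.91 CPM in JG80. In JG84 it had no count, while the other 9 libraries had 11 to 671 counts. The median of those 9 libraries was at least 165-fold higher than JG84, taking JG84 at its floor of 3 counts. Nfu_g_1_012905 followed the same order, with a median of 4.79 CPM in the 7 libraries, 0.429 CPM in JG78, 0.673 CPM in JG80 and 0 in JG84. In Nfu_g_1_010321 the steps were smaller: a median of 4.75 CPM (3.81 to 8.29 CPM) in the 7 libraries, 42 counts in JG78, 45 counts (1.59 CPM) in JG80 and 0 in JG84.

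The size of the low level differed between these genes. Among 7 on/off genes at 0 in JG84 and lower in JG78 and in JG80 than in each of the other 7 libraries, JG78 was at 0% to 31.6% of the median of those 7 libraries. JG80 was at 1.36% to 33.6%. No common ratio was seen.

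Not every gene of group 2 had the low level in JG78 and JG80. Nfu_g_1_002851 had 40 to 75 counts in 9 libraries, including 62 in JG78 and 44 in JG80, and 0 in JG84. Its median in the 9 libraries, 2.21 CPM, was at least 18.8-fold above JG84. Nfu_g_1_019730 had 32 to 186 counts in 9 libraries and 0 in JG84, with 68 counts in JG78 and 162 in JG80. These genes shared the absence in JG84 alone.

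Group 3 held 10 genes that were low in JG75, JG81, JG83 and JG84, with a mean pairwise correlation of 0.861. The median gene was at 0.9% to 2.8% of its highest level in those 4 libraries, and at 42.3% to 89.3% in the other 6. Genes with at most 3 counts numbered 9 of 10 in JG83 and 7 in each of JG75, JG81 and JG84. The exact zeros were split over these libraries, 5 in JG83, 4 in JG75, 3 in JG81 and 2 in JG84, with 1 in JG74.

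The gene of highest CPM in group 3, Nfu_g_1_021245, had 7.97 CPM in JG80 and 2.61 to 3.92 CPM in JG74, JG76, JG77, JG78 and JG82. It had 0.374 CPM in JG81, 0.275 CPM in JG84 and no count in JG75 and JG83. The pattern was shallower in Nfu_g_1_016977, which had 4 to 10 counts in JG75, JG81 and JG83, 0 in JG84 and 31 to 66 counts in the other 6 libraries. Of the genes that reached 2 CPM, 15 had a correlation of at least 0.95 with Nfu_g_1_021245, and 12 of these were not on/off genes.

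Group 4 held 4 genes that were nearly absent in JG74, JG75, JG81 and JG82, with a mean pairwise correlation of 0.947. Each gene was higher in the other 6 libraries, though Nfu_g_1_006702 had only 11 counts in JG78. The 4 genes had at most 10 counts in each of the 4 low libraries. In JG76, JG77, JG80, JG83 and JG84 they were all on. JG78 was on for 3 of the 4. It was below each of those 5 libraries in 3 genes, but not in Nfu_g_1_020666.

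Within group 4, Nfu_g_1_017941 came closest to a switch. It had 38.9 CPM in JG76, 38.6 in JG77, 31.5 in JG80, 41.5 in JG83 and 36.2 in JG84. It had 1 count in each of JG74, JG75 and JG82 and 0 in JG81. JG78 stood apart from both sets at 2.61 CPM (73 counts), 6.75% of the median of the 5 high libraries. The highest of the 5 high libraries was 1.32 times the lowest, so the on level was narrow.

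The other 3 genes of group 4 had the same low libraries but looser on levels. Nfu_g_1_013489 had 9.18 CPM in JG76, 15.2 in JG77, 17.4 in JG80, 24.0 in JG83 and 27.7 in JG84. It had 5.93 CPM in JG78, 34.1% of the median of those 5, and 0 to 7 counts in JG74, JG75, JG81 and JG82. Nfu_g_1_006702 had 5.55 to 9.30 CPM in the 5 high libraries, 0.393 CPM in JG78 (4.93% of their median) and 0 or 1 count in the low libraries. Nfu_g_1_020666 had 3.77 to 22.0 CPM in the 5 high libraries and 5.29 CPM in JG78, within that range, at 40.4% of their median. JG78 thus stood at no common fraction of the high libraries.

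The same split of libraries recurred outside the on/off genes. The gene Nfu_g_1_022436, which missed the rule because its lowest count was 1, had the highest correlation with Nfu_g_1_017941, 0.995. It had 104 to 187 CPM in JG76, JG77, JG80, JG83 and JG84, 9.36 CPM in JG78 and 1 to 6 counts in JG74, JG75, JG81 and JG82. JG78 was at 6.23% of the median of the 5 high libraries in it, next to 6.75% in Nfu_g_1_017941. Such likeness goes with so high a correlation and is no separate result. In Nfu_g_1_010386 the split was one of degree, with 12.2 to 20.0 CPM in the 5 high libraries, 8.39 CPM in JG78 and 3.41 to 3.81 CPM in the 4 low libraries. In all, 13 genes had a correlation of at least 0.95 with Nfu_g_1_017941, 2 of them on/off genes, and 1 of the 13 stood within 100 rows of it in the deposited table.

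**Figure D4:**
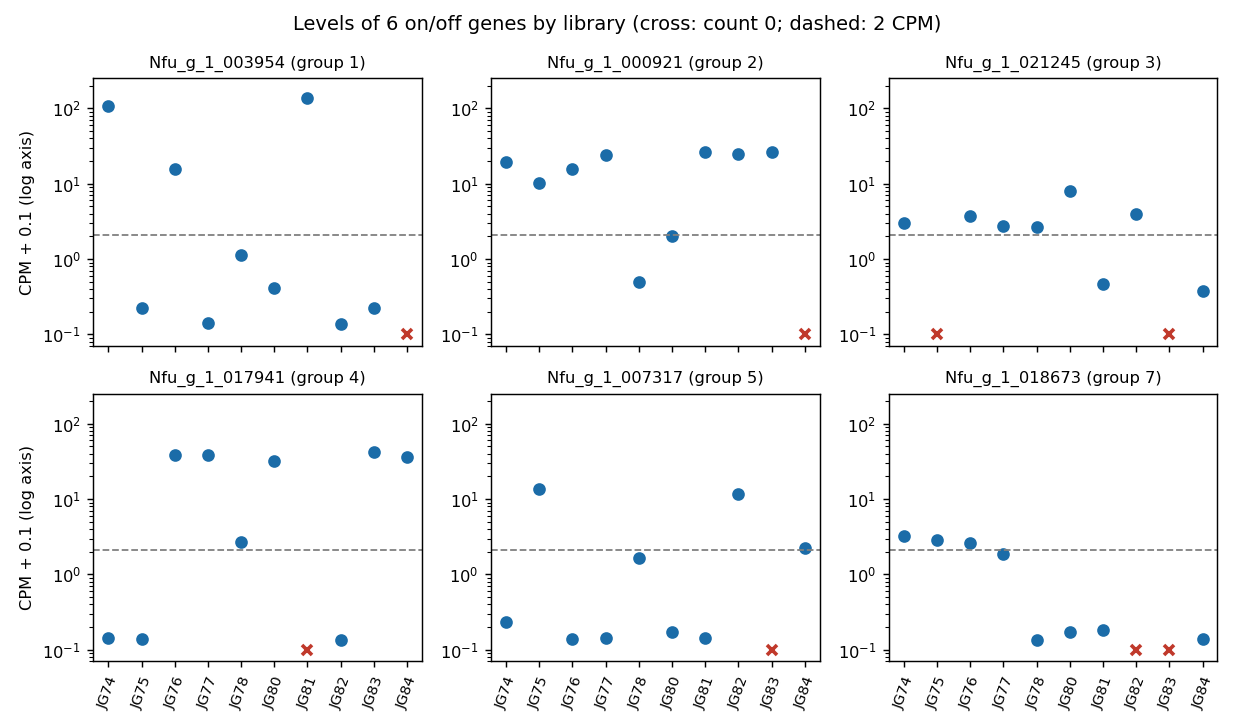
Level of 6 on/off genes (CPM + 0.1, log axis) in each library. Blue points are libraries with at least 1 count, red crosses are counts of 0, and the dashed line marks 2 CPM. Nfu_g_1_017941 has 5 libraries between 31.5 and 41.5 CPM, JG78 at 2.61 CPM and 4 libraries at 0 or 1 count.

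Group 5 held 4 genes, all on in JG82 and 3 of them also in JG75. The genes Nfu_g_1_007317 and Nfu_g_1_007316 were high in JG75 and JG82, where group 4 was nearly absent. Nfu_g_1_007317 had 13.3 CPM in JG75, 11.7 in JG82, 2.16 in JG84 and 1.57 in JG78, and at most 3 counts in the other 6 libraries. Nfu_g_1_007316 had 10.2 CPM in JG75, 8.44 in JG82, 1.38 in JG84 and 28 counts in JG78. It had 9 counts in JG81, 2 in JG77 and 0 in JG74, JG76, JG80 and JG83. Relative to the mean of JG75 and JG82, both genes were at alike intermediate levels, 12.6% and 10.7% in JG78 and 17.3% and 14.8% in JG84.

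The other genes of group 5 matched less well. Nfu_g_1_016221 had 140 counts (5.14 CPM) in JG82, 0 in JG81 and 1 to 7 in the remaining 8 libraries, so 1 library made its pattern. This was the highest level among the genes on in exactly 1 library.

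The remaining genes had rarer patterns. Group 6 held 3 genes high in JG80: Nfu_g_1_013480, given above, Nfu_g_1_021486, with 84 counts in JG80 and 0 to 4 elsewhere, and Nfu_g_1_013814. The last had 3.69 CPM in JG75 and 3.90 CPM in JG80, and at most 5 counts in the other 8 libraries, with 0 in JG81. In group 7, Nfu_g_1_018673 had 3.09 CPM in JG74, 2.79 in JG75, 2.52 in JG76 and 1.78 in JG77, and 0 to 2 counts in the other 6 libraries. The other gene of group 7, Nfu_g_1_018129, had 55 counts in JG75, 39 in JG77 and 0 to 2 in the other 8 libraries. Of the ungrouped genes, Nfu_g_1_002793 had 0 counts in JG75 and 0.536 CPM in JG78, 0.803 in JG76 and 1.13 in JG80. Its other 6 libraries had 3.15 to 8.07 CPM.

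Some on/off genes with a shared profile stood close together in the deposited table. Whether its rows follow genome order is not given in the sources used here. On average the table had 1 on/off gene per 343 rows, but 18 of the 78 had another within 5 rows, in 6 clusters of 2 to 4 genes. Of the 19 pairs within 5 rows, 13 had the same profile group. Group 1 alone held 42 of the 78 genes, so many pairs share a group wherever they stand, and that share is not given here. The 19 pairs came from the 6 clusters and are not separate cases. The correlations of the 19 pairs ran from -0.34 to 0.98 with a median of 0.87, against a median of 0.24 over all 3003 pairs.

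In group 2, a run of 6 rows held 4 of its genes, among them Nfu_g_1_010321, and a run of 5 rows held 3 more, among them Nfu_g_1_000921, with 1 gene of group 1. A gene between those, Nfu_g_1_000843, had the same profile but peaked at 1.54 CPM and so missed the rule. It had 0 counts in JG78 and JG84, 2 in JG80 and 12 to 37 in the other 7 libraries. In the row before Nfu_g_1_012905 stood Nfu_g_1_013062, not an on/off gene, with 74 to 156 counts in the 7 high libraries, 34 in JG78, 29 in JG80 and 1 in JG84. The genes Nfu_g_1_007317 and Nfu_g_1_007316 were in adjacent rows as well. Close rows did not always share a profile: Nfu_g_1_014748, in the row next but one to Nfu_g_1_007317, had 47 counts in JG74, 17 in JG84, 14 in JG80 and 0 in JG75. Near-identical neighbouring genes can share reads, and how such reads were counted is not given in the sources used here.

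On/off genes were shorter than other genes as a whole, and close in length to other genes of low peak level. Their median length was 1669 bp (213 to 8002 bp), against 2809 bp for the other genes that reached 2 CPM, and 64 of the 78 were below that value. The 66 on/off genes that peaked under 10 CPM had a median of 1736 bp, against 1827.5 bp for the 4272 other genes that peaked from 2 to 10 CPM. Group 2 had the lowest median length of the groups with 3 or more genes, 820.5 bp, against 1736 bp in group 1. CPM is not divided by length, so a short gene needs more transcripts to reach 2 CPM, and an order of genes by CPM is not an order by transcript number.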

How the data were processed

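The authors deposited raw counts per gene and RPKM values (counts scaled by gene length and library total), 1 column per library and 0 columns left out. Tools listed by the submitters' processing notes are featureCounts 1.4.6-p4, STAR 2.4.1d and bcl2fastq 1.8.4. For genome build, annotation and strand use, the sources used here say nothing.

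CPM was made from the counts and column totals. The deposited RPKM had been divided by library totals in rotation down the rows, and served only to recover gene lengths: the coefficient of variation of the implied length had a median of 0.00158% under that rotation and 11.0% with own totals (9214 genes with at least 200 counts and 5 RPKM in every library).

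The members, lists and settings were chosen with earlier results of these data known. No p-value was computed, since the rule used the same counts. Dixon's critical value served only to mark values in the closing section. A gene was called on at 2 CPM. Named genes had the highest CPM among genes on in 1, 2 to 4, 5 to 8 and 9 libraries (up to 2 each). Also named was 1 gene for each of 3 patterns with at least 2 libraries on and 2 at 0. These patterns were held by 7, 1 and 1 such genes, and patterns of 1 gene were ordered by highest CPM. The 2 genes with most intermediate libraries were added. Complementary pairs were to be named too, and there were none. The rule named Nfu_g_1_016221, Nfu_g_1_005561, Nfu_g_1_003954, Nfu_g_1_020600, Nfu_g_1_017941, Nfu_g_1_013489, Nfu_g_1_011390, Nfu_g_1_007316, Nfu_g_1_019372 and Nfu_g_1_012203. All other genes were named after their values were seen. Profile groups used average linkage on correlation. The code of the on/off rule was run on simulated counts with counting noise only, with zeros planted in genes averaging at least 5 CPM. This checks the code, not the rule on genes as low as most on/off genes. Python 3.11.15, numpy 2.4.6, pandas 2.3.3 and scipy 1.17.1 were used, with edgeR 4.0.16 (TMM) and DESeq2 1.42.0 (size factors) for other scalings.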

Additional observations from a re-analysis of the deposited data

Results flagged for a closer look

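The sets of 10 values looked at numbered 35, namely 5 library measures and 30 of the named genes. Nfu_g_1_010510, Nfu_g_1_018129 and Nfu_g_1_020666, also named above, were not among them. In 12 sets a library was far above the others. Its gap to the next library, as a part of the whole range, was beyond Dixon's critical value for 10 samples. The rate of about 1 in 20 that chance gives does not apply here. The genes were selected on these same counts, many for being on in few libraries, so the flags largely restate that selection and are given as values. The number of on/off genes that peak in a library was highest in JG74, with 34, where the gap was 0.529 of the range. JG74 was the library far above the others in Nfu_g_1_005561 (0.633), Nfu_g_1_012203 (0.593), Nfu_g_1_007753 (0.973) and Nfu_g_1_014748 (0.673). JG81 was so in Nfu_g_1_020600 (0.910), Nfu_g_1_011390 (0.806) and Nfu_g_1_019372 (0.764), all of which were also on in JG74. JG80 was so in Nfu_g_1_021245 (0.508), Nfu_g_1_013480 (0.935) and Nfu_g_1_021486 (0.952), and JG82 in Nfu_g_1_016221 (0.941). Nfu_g_1_021245 was on in 6 libraries, so a flag does not mean that the other libraries were off.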

How the results depend on the processing

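The number of on/off genes was 78, and 77 with DESeq2 size factors and 78 with TMM scaling. These scalings moved none of the other counts by more than 1.5 times. With 1 CPM as on there were 133 genes, 48 of them on in 1 library, 3 in 9 libraries, 20 without intermediate libraries, 35 with at least 2 libraries on and 2 at 0, 95 on in the library with most, and 5 patterns in at least 5 genes. With 5 CPM these were 31, 13, 0, 0, 5, 16 and 2. With at most 1 count as absent there were 116 genes, 39 on in 1 library, 37 with at least 2 libraries on and 2 absent, and 77 on in the library with most. With at most 3 counts there were 175 genes, 56 on in 1 library, 1 in 9 libraries, 5 without intermediate libraries, 82 with at least 2 on and 2 absent, 114 on in the library with most, and 8 such patterns. A filter at a mean of 1 CPM, which removes low genes, left 36 genes, with 0 on in 1 library, 1 without intermediate libraries, 24 on in the library with most and 1 such pattern.

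Without both JG74 and JG81, a setting chosen after seeing the data, 30 genes were left, 8 on in 1 library, 6 with at least 2 on and 2 at 0, 18 on in the library with most, and 0 such patterns. Leaving out each library in turn gave 61 to 78 on/off genes, the fewest without JG74. Genes on in 1 library numbered 28 to 44, the most without JG81. Those without intermediate libraries, 3 in all, numbered 2 to 7, with 5 without JG77, 7 without JG78 and 5 without JG81. Those with at least 2 on and 2 at 0, 14 in all, numbered 6 to 14, with 6 without JG74, 8 without JG75, 7 without JG81, 9 without JG82 and 8 without JG84. The library with most genes on had 36 to 51, and there were 1 to 3 such patterns, 1 without JG74 and 1 without JG81. With 9 libraries left, no on/off gene can be on in 9, since the rule asks for a 0, so that count was 0 by definition. Complementary pairs, which only genes without intermediate libraries can form, numbered 0 in each setting tried. The median length was 1538 to 1747 bp, and 1667 bp from genes with at least 200 counts. Profile groups of 3 or more genes numbered 6, and 5 to 6 with other pseudocounts or correlations, also chosen after seeing the data. The largest group held 42 genes, against 52 when separated at a correlation of 0.3 and 40 at 0.7, so group limits depend on that setting. No paired analysis was possible because all libraries form 1 group.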
